A study of Saccharomyces cerevisiae W303 with 8 samples.

Results

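Glycerol synthesis and transport genes of budding yeast (Saccharomyces cerevisiae, W303 background) were followed through hyperosmotic stress. The group holds 9 genes named from the literature, GPD1, GPD2, GPP1, GPP2, STL1, FPS1, GUP1, GCY1 and DAK1, and each was found by its systematic ORF name among the 6228 such names on the array. Every one was represented by 1 probe in 2 spots per array, so all 9 of 9 could be measured, and all 9 passed the filter on dim probes with Cy5 and Cy3 well above background on all 8 arrays. Both strains are labelled msn2msn4, for the genes of the stress transcription factors Msn2 and Msn4, and both carry pMsn2pMsn2DNES. The control strain has no further label, and the other is labelled msn2msn4cdc55, for CDC55, a regulatory B subunit gene of protein phosphatase 2A (PP2A). The labels do not say what any of these alleles, or the plasmid, consists of. Cells grew in rich medium (YPD) at 30 degrees C, and total RNA was taken before and 10, 20 and 30 min after NaCl was added to 0.4 M. Each strain and time was measured once, on a 2-colour array that carried the sample in Cy5 and untreated control strain RNA in Cy3. The series title sets the comparison in terms of the phosphatase and of Msn2 and Msn4. Libraries labelled in these ways are called control cells and cdc55 cells from here on.

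Glycerol is the solute with which yeast balances high external osmolarity. It is made from the glycolytic intermediate dihydroxyacetone phosphate by a glycerol 3-phosphate dehydrogenase and a phosphatase, is kept in the cell by closing a channel, and is taken up from outside by a symporter. The kinase Hog1 is known to drive several of these genes under salt stress. A second route through dihydroxyacetone can return glycerol to glycolysis.

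Between 93.1% and 98.6% of gene spots were well above background in Cy5, and the control array at 0 min, on which both channels held RNA of the same strain, had a ratio SD of 0.15 (log2) among 6108 probes. The scanner files attached to control 10 min and cdc55 0 min held each other's values in the deposited value table, as did those attached to control 30 min and cdc55 20 min, and these 4 files were swapped back. With the files swapped back 5646 of 5742 complete rows of that table matched 1 probe, against 2 with the files as attached. CDC55 had log2 ratios of 0.14 to 0.45 in control cells and -0.54 to -0.21 in cdc55 cells. How many of all probes were so separated was not counted. CDC55 was only 1.3-fold to 1.98-fold lower in cdc55 cells. The difference did not pass under NaCl, at -0.65 ± 0.16 (log2, SE; limma adjusted p = 0.0883), or at 0 min, at -0.65 ± 0.27 (adjusted p = 0.749). The CDC55 probe was well above background in Cy5 on all 8 arrays. Whether that probe lies in an altered part of CDC55 is not known here, so the strain labels rest on this small difference and on the submitters' names. The 3 files without a settings block were both 0 min arrays and control 10 min, so file type and NaCl cannot be told apart in cdc55 cells. No label says whether the time points came from separate cultures. A p-value here rests on how the strain difference of single arrays varied over 10, 20 and 30 min. That spread can hold technical scatter as well as real change of the strain difference with time, and these were not told apart. Change over time that both strains share is not part of it.

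**Figure D1:**
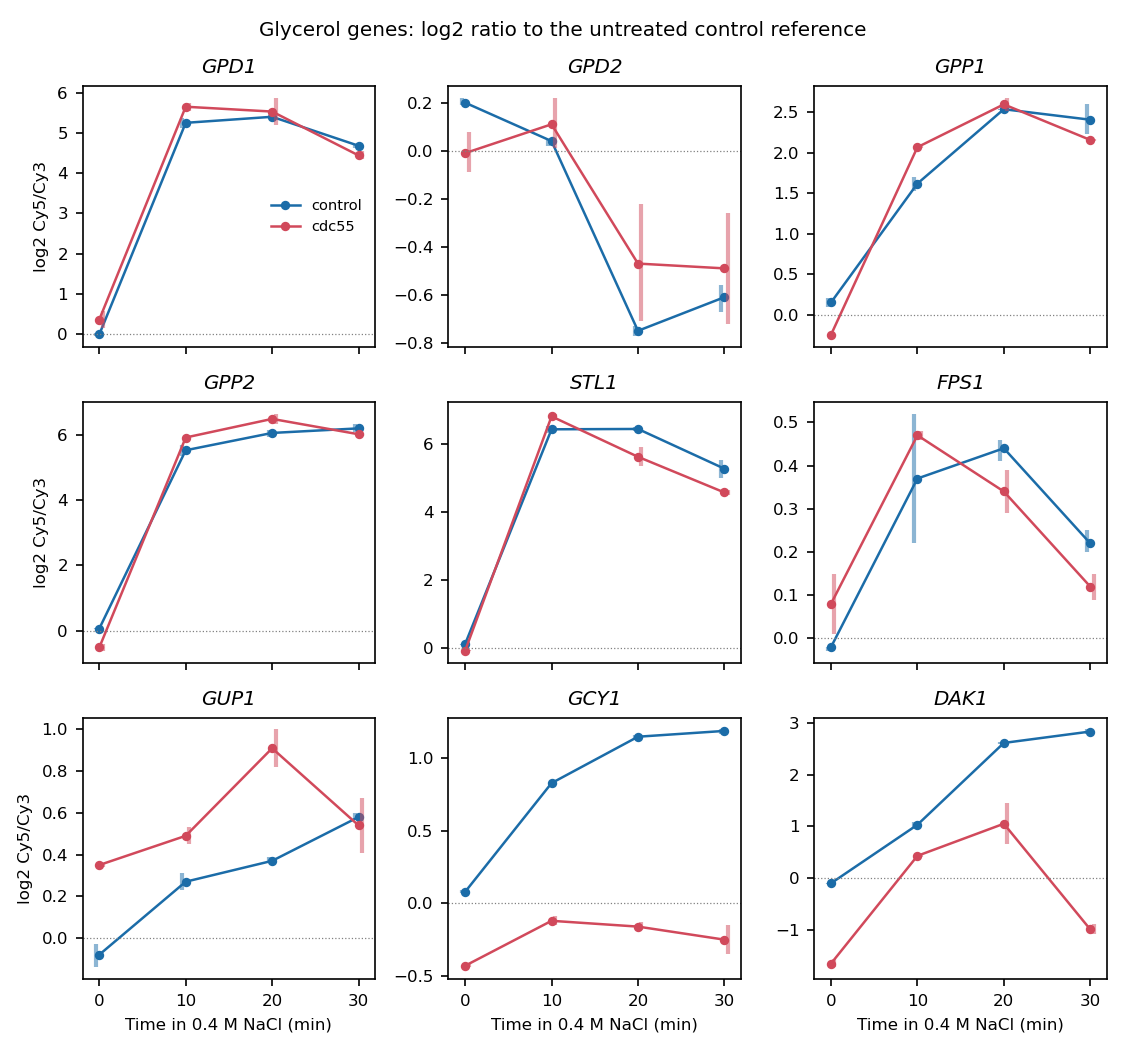
Log2 Cy5/Cy3 of the 9 genes against time in 0.4 M NaCl (min), with control cells in blue and cdc55 cells in red. Points are the mean of the 2 spots of a probe and short bars run from the lower to the higher spot; vertical scales differ between genes. GPD1, GPP2 and STL1 climb above 4 in both strains, while DAK1 reaches 2.83 in control cells at 30 min and -0.99 in cdc55 cells.

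The 2 spots of a probe differed by a median of 0.10 on the log2 scale over the members and arrays, and by 0.80 at most, for DAK1 in cdc55 cells at 20 min. At 10 min 5 of 9 genes were more than 2-fold above their own strain's 0 min array in control cells, where 6.3% of all probes were. The same count was 5 of 9 in cdc55 cells, against 5.88% of all probes. At 30 min it was 6 of 9 in control cells, against 6.53%, and 4 of 9 in cdc55 cells, against 3.26%. At 20 min the counts were 6 of 9 (8.3%) and 5 of 9 (6.42%). Past 2-fold below their 0 min array were 0 of 9 at every time in both strains, where 5.01%, 10.4% and 6.42% of all probes were so at 10, 20 and 30 min in control cells and 6.63%, 8.35% and 2.13% in cdc55 cells.

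GPD1 (YDL022W) encodes the glycerol 3-phosphate dehydrogenase known to be induced by osmotic stress. At 0, 10, 20 and 30 min the log2 ratio was -0.01, 5.25, 5.40 and 4.68 in control cells, against 0.36, 5.65, 5.53 and 4.44 in cdc55 cells. All 6 arrays with NaCl lay far above both 0 min arrays. Against 0 min, the mean over the 3 times rose by 5.12 ± 0.22 (log2, SE; limma adjusted p = 0.00054), a 34.7-fold change, in control cells. It rose by 4.85 ± 0.22 (adjusted p = 0.000744), or 28.7-fold, in cdc55 cells. From 20 to 30 min GPD1 changed by -0.72 in control cells and by -1.09 in cdc55 cells, in which it stood highest at 10 min. In normalised Cy5 alone the order of these changes turned, at -0.92 in control cells and -0.38 in cdc55 cells.

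GPD2 (YOL059W), which encodes the isoenzyme known for its role in redox balance without oxygen, did not pass the test in either strain. Its log2 ratio was 0.20, 0.04, -0.75 and -0.61 in control cells and -0.01, 0.11, -0.47 and -0.49 in cdc55 cells. In both strains the values at 20 and 30 min lay below those at 0 and 10 min. The mean change was -0.65 ± 0.17 in control cells (limma adjusted p = 0.0585) and -0.27 ± 0.17 in cdc55 cells (adjusted p = 0.366). In control cells it passed when the variance was allowed to follow intensity (adjusted p = 0.047), on the deposited value table (adjusted p = 0.0497) and without the 10 min arrays, at -0.89 (adjusted p = 0.00917).

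The phosphatase step is encoded by GPP1 (YIL053W) and GPP2 (YER062C), which are closely related in sequence. The probe sequences were not used here, so how far each probe reads the other gene was not tested. GPP2 stood at 0.06, 5.52, 6.05 and 6.19 in control cells and at -0.52, 5.91, 6.48 and 6.01 in cdc55 cells. Its ratio was highest at 30 min in the former and at 20 min in the latter. In normalised Cy5 alone it was highest at 20 min in control cells, changing by -0.60 from 20 to 30 min, and in cdc55 cells 10 and 20 min differed by 0.01. GPP2 rose by 5.86 ± 0.23 (limma adjusted p = 0.000444) and 6.66 ± 0.23 (adjusted p = 0.000421), and in cdc55 cells it had the highest change in the ratio of all 6108 probes.

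GPP1 moved less, with log2 ratios of 0.15, 1.62, 2.54 and 2.41 in control cells and -0.25, 2.07, 2.60 and 2.16 in cdc55 cells. All arrays with NaCl were above both 0 min arrays. It rose by 2.04 ± 0.24 (limma adjusted p = 0.00953) and 2.52 ± 0.24 (adjusted p = 0.00863). Neither call held without 20 min (adjusted p = 0.106 and 0.112) or with the 3 times treated as repeats (adjusted p = 0.0932 and 0.0775).

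For these bright genes the ratio has to be read beside the signal of each channel. Cy3 held the same reference RNA on every array, per the labels, yet for 4 of the 9 genes its signal moved more than 2-fold with NaCl. After normalisation the mean Cy3 signal on the 6 arrays with NaCl, against that on the 2 arrays at 0 min, was 5.79-fold lower for GPP2, 3.63-fold lower for GPD1 and 2.6-fold lower for GPP1. It was 7.22-fold higher for STL1. Of 6108 probes 26 (0.426%) moved more than 2-fold in Cy3, with GPP2 the lowest of all, GPD1 and GPP1 at ranks 3 and 5 from the lowest, and STL1 the highest of all. The other 5 members moved by -0.38 (DAK1, rank 59 from the lowest) to 0 (FPS1) on the log2 scale. At 30 min the normalised Cy3 of DAK1 was 0.82 (log2) higher on the cdc55 array than on the control array.

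The Cy5 signal of GPP2 less local background was 33985, 311993, 328823 and 383241 scanner units in control cells, and 38966, 354194, 391429 and 352284 in cdc55 cells. It was the brightest of all gene probes on 3 arrays, at 20 and 30 min in control cells and at 20 min in cdc55 cells. The Cy5 signal of GPD1 on the arrays with NaCl was 79.3% to 99.1% of the brightest probe of its array. No spot of the 9 genes was marked as saturated. Over the same arrays the Cy3 signal of GPP2 was 16622, 5105, 4765 and 1960 in control cells, lowest on the array on which its ratio was highest. These signals are not adjusted between arrays. The part of these channel values in the ratios was not tested.

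**Figure D2:**
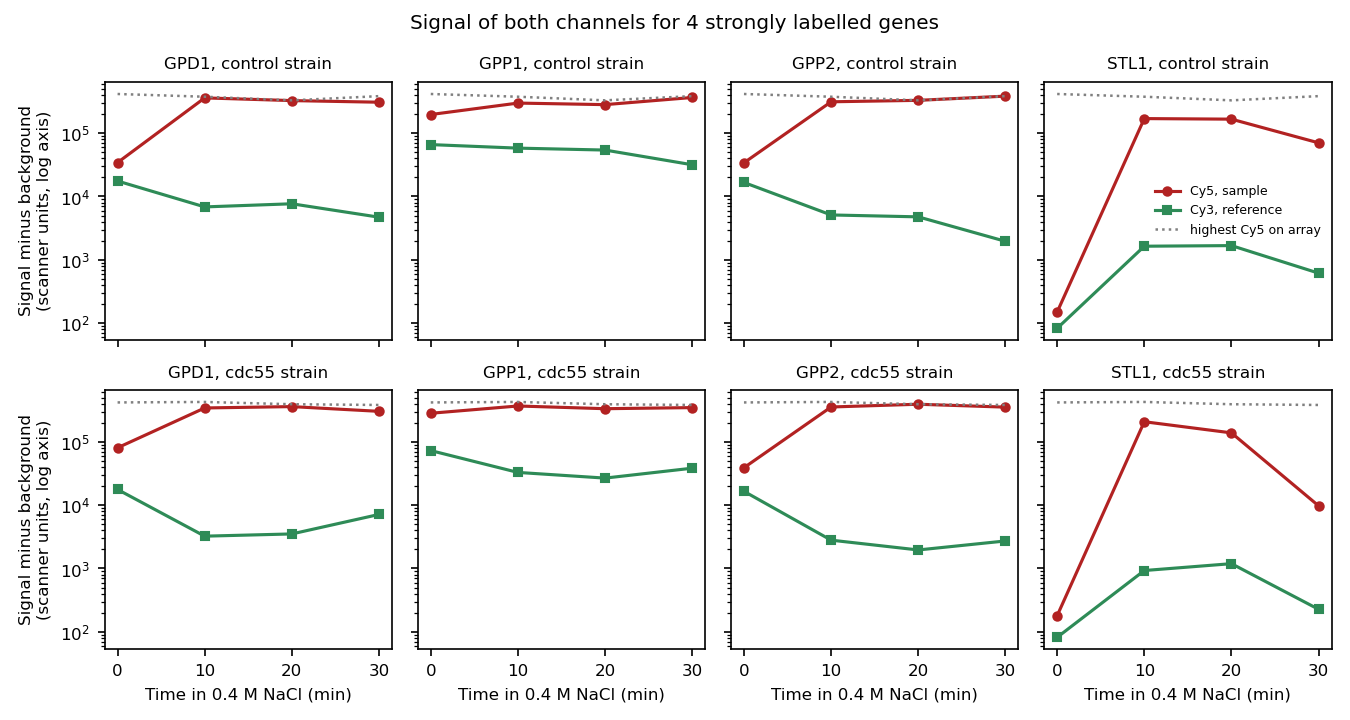
Background-subtracted Cy5 (sample, red) and Cy3 (reference, green) signal of GPD1, GPP1, GPP2 and STL1 against time in NaCl (min), on a log axis in scanner units, for each strain. Points are the mean of 2 spots and the dotted line is the brightest gene probe of that array. GPD1, GPP1 and GPP2 run up to the dotted line while their Cy3 falls, and the Cy3 of STL1 rises with its Cy5.

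With the Cy5 channel alone, an alternative chosen after seeing the data, the rise of GPD1 was 3.42 ± 0.23 in control cells and 2.82 ± 0.23 in cdc55 cells (limma adjusted p = 0.00014 and 0.00111). That of GPP2 was 3.47 ± 0.23 and 3.98 ± 0.23 (adjusted p = 0.000131 and 0.00015). Both genes therefore rose on either scale, and their sizes differed between scales. The normalisation used both dyes, so the Cy5 scale is not free of Cy3. GPP1 rose by 1.03 ± 0.22 in control cells (adjusted p = 0.0199), and in cdc55 cells its change of 0.78 ± 0.22 did not pass (adjusted p = 0.0757).

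STL1 (YDR536W) encodes the plasma membrane symporter that brings in glycerol with protons. Its log2 ratio was 0.12, 6.44, 6.45 and 5.28 in control cells and -0.08, 6.82, 5.63 and 4.58 in cdc55 cells. From 10 to 20 min STL1 changed by 0.01 in control cells and by -1.19 in cdc55 cells. At 30 min STL1 had 44.4% of its peak ratio left in control cells and 21.1% in cdc55 cells. It rose by 5.94 ± 0.35 (limma adjusted p = 0.00151) and 5.76 ± 0.35 (adjusted p = 0.00214), the fourth and the fifth highest change of all probes in the respective strain. With the times treated as repeats the cdc55 call was lost (adjusted p = 0.0586).

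The signals of STL1 spanned a wider range than its ratios. Its Cy5 signal was 150, 169445, 166004 and 70185 in control cells and 180, 207318, 138218 and 9756 in cdc55 cells. Its Cy3 signal was 83, 1639, 1676 and 616 in the former and 82, 929, 1192 and 227 in the latter. Cy3 was thus lowest on both 0 min arrays, and with NaCl it lay between 0.448% and 2.33% of Cy5. On normalised Cy5 alone STL1 stood 748-fold, 982-fold and 204-fold above 0 min in control cells at 10, 20 and 30 min. In cdc55 cells it stood 1140-fold, 608-fold and 50-fold above 0 min. The size of these folds is uncertain, since they are set against 0 min signals of 150 and 180. The median Cy5 signals of those arrays were 7221 and 13633, and an offset of 50 was added to all signals.

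At 30 min the strains differed 5.18-fold for STL1 in Cy5 alone and 1.63-fold in the ratio, lower in cdc55 cells on both scales. At 20 min the factors were 2.05 and 1.77. At 10 min cdc55 cells were the higher, by 0.26 in Cy5 and by 0.38 in the ratio (log2). Over the 3 times the strain difference was -0.38 ± 0.25 in the ratio (95% interval -1.0 to 0.23; limma adjusted p = 0.385) and -1.05 ± 0.41 in Cy5 alone (adjusted p = 0.167), and neither passed. Without the 10 min arrays it was -0.76 ± 0.18 in the ratio and passed (adjusted p = 0.0116). Without 20 min it was -0.16 ± 0.31 (adjusted p = 0.858) and without 30 min -0.22 ± 0.31 (adjusted p = 0.724).

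FPS1 (YLL043W) encodes the channel through which glycerol leaves the cell and which closes under osmotic stress. Its log2 ratio stayed between -0.02 and 0.47 on all 8 arrays, with 0.37, 0.44 and 0.22 in control cells and 0.47, 0.34 and 0.12 in cdc55 cells at 10, 20 and 30 min. The changes of 0.37 ± 0.17 and 0.23 ± 0.17 did not pass (limma adjusted p = 0.193 and 0.451), with 95% intervals of -0.06 to 0.79 and -0.20 to 0.65.

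GUP1 (YGL084C) was found in a search for glycerol uptake genes, and its product is known as an acyltransferase of membrane anchors. It stood at -0.08, 0.27, 0.37 and 0.58 in control cells and at 0.35, 0.49, 0.91 and 0.54 in cdc55 cells. The cdc55 array at 0 min lay close to the control arrays with NaCl. Its responses of 0.49 ± 0.22 and 0.30 ± 0.22 did not pass (limma adjusted p = 0.166 and 0.431).

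GCY1 (YOR120W) and DAK1 (YML070W) encode the glycerol dehydrogenase and the dihydroxyacetone kinase of the return route. Both ratios were lower in cdc55 cells at every time, and under NaCl only the difference of GCY1 passed the test. The log2 ratio of GCY1 was 0.08, 0.83, 1.15 and 1.19 in control cells, with 1 of 2 spots left out as non-uniform at 10 min. It was -0.43, -0.12, -0.16 and -0.25 in cdc55 cells, where no array rose above the reference. The highest value of cdc55 cells, -0.12 at 10 min, lay below the lowest of control cells, 0.08 on the array before NaCl. By the scanner software's log ratio the highest and the lowest were 0.01 and 0.08. How many of all probes were so separated was not counted, so how common such a gap is cannot be said here.

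GCY1 rose by 0.97 ± 0.20 in control cells (limma adjusted p = 0.0351), and in cdc55 cells its change of 0.25 ± 0.20 did not pass (adjusted p = 0.484). Under NaCl it was lower in cdc55 cells by 1.23 ± 0.14, or 2.35-fold (adjusted p = 0.0225), with factors of 1.93, 2.47 and 2.71 at 10, 20 and 30 min. In Cy5 alone the strain difference was -1.38 ± 0.14 (adjusted p = 0.00308). The difference between the responses, -0.72 ± 0.29, did not pass (adjusted p = 1), and at 0 min the strain difference was already -0.51 ± 0.25 (adjusted p = 0.797). The strain call under NaCl did not hold without 20 min (adjusted p = 0.284) or without 30 min (adjusted p = 0.108). The control response was lost without 20 min (adjusted p = 0.201) and with times as repeats (adjusted p = 0.122).

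DAK1 had log2 ratios of -0.10, 1.03, 2.61 and 2.83 in control cells and -1.65, 0.43, 1.05 and -0.99 in cdc55 cells. In control cells the DAK1 ratio was higher at each step, while its normalised Cy5 changed by -0.12 from 20 to 30 min. In cdc55 cells it started 2.92-fold lower, was highest at 20 min and changed by -2.04 from 20 to 30 min. At 30 min the strains were 14.1-fold apart in the ratio and 7.95-fold apart in Cy5 alone. The raw Cy5 signals at 30 min were 169467 and 21764, on arrays with Cy3 signals of 9498 and 21852 for this probe. No replicate array stands behind this time point.

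In the fit DAK1 changed by 2.26 ± 0.80 in control cells and by 1.81 ± 0.80 in cdc55 cells, and neither passed (limma adjusted p = 0.106 and 0.216). For DAK1 cdc55 minus control was -0.60, -1.56 and -3.81 at 10, 20 and 30 min. This widening gap enters the standard errors of DAK1 in all these tests. The 2 spots of its probe lay a median of 0.10 apart, and 0.80 at most. Whether the widening was real or scatter between single arrays was not tested. These non-calls therefore do not show that DAK1 was unchanged or alike in the strains. The strain difference under NaCl was -1.99 ± 0.56 (adjusted p = 0.115), with the largest standard error of the 9 genes. It passed without the 10 min arrays, at -2.69 ± 0.37 (adjusted p = 0.000448), with median centring, at -1.87 (adjusted p = 0.035), and with a strain term held constant over all times, at -1.88 (adjusted p = 0.0441). It did not pass without 30 min, at -1.08 ± 0.26 (adjusted p = 0.176), or without 20 min, at -2.21 ± 0.76 (adjusted p = 0.444). The control response passed without the 10 min and without the 30 min arrays (adjusted p = 0.000568 and 0.0245) and with median centring (adjusted p = 0.0344). The cdc55 response passed without 10 min and without 30 min (adjusted p = 0.0247 and 0.0202). Leaving out 30 min turned the difference of the responses from -0.45 to 0.46.

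**Figure D3:**
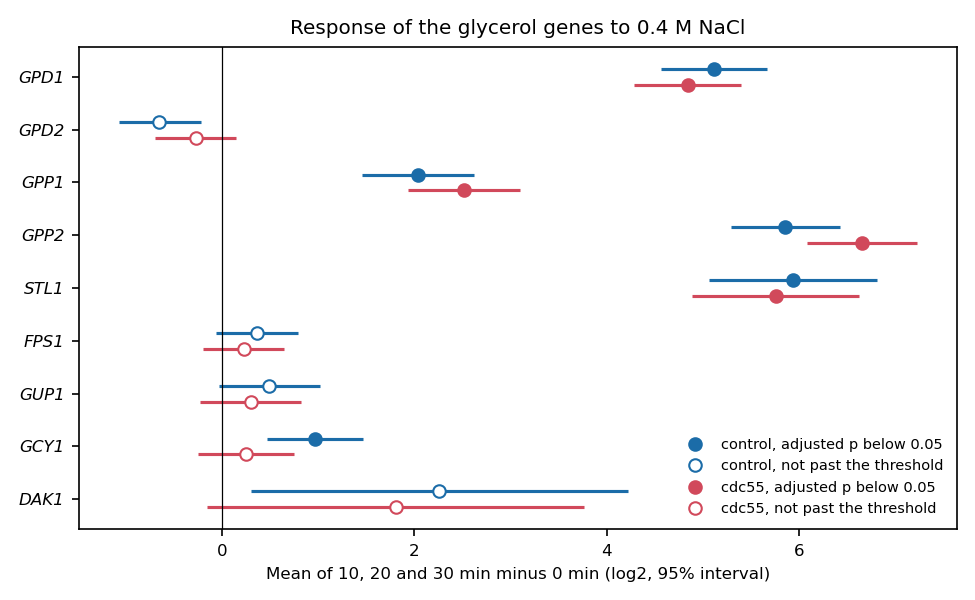
Change of each gene from 0 min to the mean of 10, 20 and 30 min (log2, x axis) with its 95% interval, control cells in blue and cdc55 cells in red. Filled points passed a limma adjusted p of 0.05 and open points did not; the 5 genes that passed in control cells are GPD1, GPP1, GPP2, STL1 and GCY1.

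In all, 5 of 9 genes rose in control cells, 0 fell and 4 did not pass, where 13.6% of all probes passed, 7.66% rising and 5.89% falling. In cdc55 cells 4 rose, 0 fell and 5 did not pass, where 4.19% of all probes passed, 2.88% rising and 1.31% falling. The 4 genes called in cdc55 cells, GPD1, GPP1, GPP2 and STL1, were all called in control cells too. Both responses share the same standard error per gene and the same reference RNA. The median change of the 9 genes was 2.04 in control cells and 1.81 in cdc55 cells, and over all probes it was 0 and 0.01.

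The strains were then compared at each time. The ratio in cdc55 cells was the lower for 6 of 9 genes at 0 min, 2 of 9 at 10 min, 4 of 9 at 20 min and 8 of 9 at 30 min, with GPD2 the exception at 30 min. Over all probes 49.4%, 51%, 46.1% and 54.2% were lower at these times. In Cy5 alone the counts were 5, 4, 7 and 7 of 9, against 50.6%, 50%, 47.4% and 53.3% of all probes. The median difference of the 9 genes was -0.21, 0.22, 0.06 and -0.24 (log2). Past 2-fold lower in cdc55 cells was DAK1 at 0 min (1.54% of all probes), 0 genes at 10 min (1.41%), and GCY1 and DAK1 at 20 min (2.21%) and 30 min (4.29%).

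**Figure D4:**
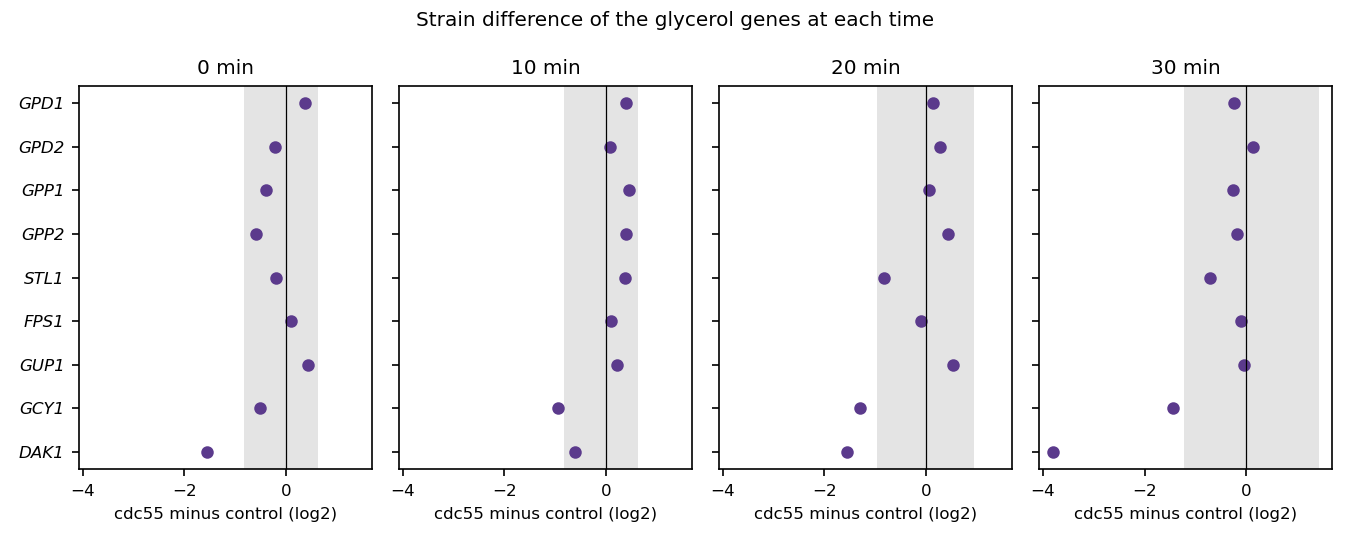
Difference between the strains, cdc55 minus control (log2 ratio, x axis), for each of the 9 genes at 0, 10, 20 and 30 min, 1 array per strain and time. Grey bands hold the middle 95% of all 6108 probes at that time. GCY1 and DAK1 lie left of 0 in every panel, and DAK1 reaches -3.81 at 30 min.

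For these 3 synthesis genes the direction depended on the time and on the channel. GPD1 differed by 0.37, 0.40, 0.13 and -0.24 at 0, 10, 20 and 30 min, GPP1 by -0.40, 0.45, 0.06 and -0.26, and GPP2 by -0.58, 0.39, 0.43 and -0.18. In the ratio each of the 3 was higher in cdc55 cells at 10 and 20 min and lower at 30 min. In Cy5 alone all 3 were lower in cdc55 cells at 20 min, GPD1 by -0.56, GPP1 by -0.28 and GPP2 by -0.39, and at 10 min GPD1 stood at -0.08, GPP1 at 0.16 and GPP2 at 0.18. Averaged over the times with NaCl the differences were 0.10 (95% interval -0.29 to 0.49), 0.09 (-0.32 to 0.50) and 0.21 (-0.19 to 0.62), and none passed (limma adjusted p = 0.733, 0.773 and 0.456). In Cy5 alone all 3 averages were negative, at -0.22, -0.11 and -0.10, and none passed.

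Under NaCl 1 of 9 genes, GCY1, was called lower in cdc55 cells and 0 higher, where 2.21% of all probes passed, 1.85% lower and 0.36% higher. At 0 min, with 1 array per strain, both arrays are fitted exactly, so the spread in this test comes from the arrays with NaCl and is assumed to hold at 0 min. On that assumption limma called 0 of 9, against 0.0491% of all probes, and at an unadjusted p under 0.05 also 0 of 9, against 6.73%. In the test of whether the response itself differed, limma called 0 of 9 members and 0 of 6108 probes (0%). At an unadjusted p under 0.05 it gave 81 probes (1.33%), among them GCY1. The interval of that difference ran from -0.01 to 1.60 for GPP2, whose estimate was 0.79 ± 0.33 larger in cdc55 cells, and from -3.22 to 2.32 for DAK1. The estimate for GPP2 joins a strain difference of -0.58 at 0 min, on 1 array per strain, with 0.21 under NaCl.

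Other genes of glycerol metabolism were read from a list of 9, of which 2 rose, 0 fell and 7 did not pass in control cells. Of all probes 7.66% rose and 5.89% fell there. In cdc55 cells 1 rose, 0 fell and 8 did not pass, where 2.88% of all probes rose and 1.31% fell. YPR1 (YDR368W), a reductase gene related to GCY1, had log2 ratios of 0.15, 1.66, 2.43 and 2.03 in control cells and 0.32, 1.71, 2.20 and 2.23 in cdc55 cells. The strains lay close together at every time in the ratio. In Cy5 alone cdc55 minus control was 0.24, 0.01, -0.45 and 0.40 at 0, 10, 20 and 30 min. The ratio of YPR1 rose by 1.89 ± 0.20 and 1.73 ± 0.20 (limma adjusted p = 0.00689 and 0.0143). Both calls were lost without 20 min (adjusted p = 0.0713 and 0.121) and with times as repeats (adjusted p = 0.0776 and 0.159).

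GUT2 (YIL155C), the mitochondrial glycerol 3-phosphate dehydrogenase gene, stood at 0.09, 1.44, 2.20 and 2.28 in control cells and at 0.08, 1.13, 1.71 and 1.16 in cdc55 cells. The strains were level before NaCl and 2.18-fold apart at 30 min. GUT2 rose by 1.89 ± 0.26 in control cells (limma adjusted p = 0.0158), a call lost without 20 min (adjusted p = 0.12) and with times as repeats (adjusted p = 0.106). Its change of 1.25 ± 0.26 in cdc55 cells did not pass (adjusted p = 0.0632), but did with median centring (adjusted p = 0.0295), without 10 min (adjusted p = 0.00274) and without 30 min (adjusted p = 0.0202). The strain difference under NaCl of -0.65 ± 0.18 did not pass (adjusted p = 0.117), but did without 10 min (adjusted p = 0.0154) and in Cy5 alone (adjusted p = 0.0359).

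The remaining 7 did not pass in either strain. GUT1, the glycerol kinase gene, stood between -0.01 and 0.57 on all arrays, and DAK2, a second dihydroxyacetone kinase gene, between -0.55 and 0.26. HOT1, which encodes a transcription factor known to act with Hog1 on GPD1 and STL1, stood between -0.17 and 0.73, the latter in control cells at 10 min. Of the regulators of the Fps1 channel, RGC1 reached 0.73 in control cells at 20 and 30 min and 0.62 in cdc55 cells at 20 min, while ASK10 was at its lowest, -0.60, in cdc55 cells at 10 min. GUP2, a relative of GUP1, was lowest at 20 min in both strains, at -0.73 and -0.87. YIG1, whose product is known to bind a glycerol 3-phosphatase, stood at 1.51 in control cells at 10 min and at 1.23 in cdc55 cells at 30 min.

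Genes whose log2 ratios lay nearest to each member over the 8 arrays were found by the root mean square difference among 6062 genes outside these lists, as a description over arrays that share the reference. For GPD1 they were GRE2 (0.62), ALD3 (0.64) and NQM1 (0.73), which encode a methylglyoxal reductase, an aldehyde dehydrogenase and a transaldolase. For GPP2 they were RTC3 (0.61), the small heat shock protein gene HSP12 (0.69) and NQM1 (0.77). For STL1 they were RTC3 (0.80), ALD3 (0.86) and the catalase gene CTT1 (0.91). At 30 min in cdc55 cells CTT1, RTC3 and ALD3 stood at 5.77, 6.23 and 4.73, each above the 4.58 of STL1. This order is a description only, since these genes were picked on the same arrays and the Cy3 of STL1 moved with NaCl.

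GPP1 had closer neighbours, the pyruvate carboxylase gene PYC1 (0.20), DCS1 (0.23) and ARI1 (0.24). DAK1 lay at 0.60 from the peroxisomal import gene PEX18, at 0.72 from the mitochondrial outer membrane gene OM45 and at 0.76 from GSP2. At 30 min in cdc55 cells these 3 stood at -0.14, 0.50 and 0.76, all above the -0.99 of DAK1. They too were picked on the same arrays, so this order is a description only. GCY1 was nearest to BNA4 (0.23), YJL132W (0.23) and EMP46 (0.24). These were picked for ratios close to those of GCY1, so their lower values in cdc55 cells follow from the choice. GPD2 was nearest to ALG3 (0.12), RPS28A (0.13) and OST5 (0.14), FPS1 to ORM1 (0.07), MLH3 (0.07) and APC5 (0.08), and GUP1 to PTC4 (0.07), STE11 (0.08) and COS3 (0.08).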

How the data were processed

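The deposited scanner files give each spot's intensity and local background per dye, with the software's log10 ratio (Cy5 over Cy3), per the file headers. They were made with Agilent Feature Extraction, per the submitters' processing notes (version 10.5.1.1 per the file headers of 5 files). The deposited value table holds log2 values, matched to log2 Cy5 over Cy3 of the scanner files within 0.01. Its scale and direction were settled this way, and its row names matched the equalled probe in 0 of 5675 rows, so rows were named through their values. The 4 exchanged files were assigned by the columns of that table.

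Median signals were read with Python 3.11.15 and pandas 2.3.3 and fitted in limma 3.58.1 under R 4.3.3 (normexp, offset 50, loess within arrays, non-uniform spots left out, spots of a probe averaged). From 6256 probes, 12 lacking a usable spot somewhere and 136 dim ones (above background in Cy5 on under 3 arrays) were dropped, leaving 6108. The limma fit had a term per time and a strain term for 0 min and for NaCl: 6 coefficients, 2 residual and 3.93 prior degrees of freedom (the spread comes from the arrays with NaCl, also for contrasts that use the 0 min arrays), with Benjamini-Hochberg adjustment over all probes and a threshold of 0.05. The fit was tested on simulated data, but no outcome is given here, so this lends the p-values no weight. The number of arrays limits the precision, and the median Cy5 signal was 5523 to 13696 over a background of 44 to 54. Single channels were taken after loess and Aquantile normalisation, which use both dyes, so Cy5 alone is not free of Cy3. Of 6228 systematic names 5740 were in the RefSeq gene table (R64). Coordinates are not printed, since that assembly is not the build the headers name. Named genes were all members, the other listed glycerol genes, CDC55 and, for each member, the 3 nearest genes. The members and lists were chosen with earlier results of these data known.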

Additional observations from a re-analysis of the deposited data

How the results depend on the processing

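No paired analysis was possible because the labels carry no replicate numbers to pair by; the fit itself compares the strains within each shared time, which treating the times as repeats drops. With the files as attached limma called 0 probes and 0 members in all 5 comparisons. The cdc55 responses of DAK1, FPS1, GCY1, GPD1 and STL1 then turned to -0.28, -0.10, -0.56, -0.33 and -0.88. The strain differences at 0 min of DAK1, GCY1, GPP1, GPP2 and STL1 turned to 1.13, 0.74, 1.46, 5.46 and 6.32. Those under NaCl of DAK1, GCY1, GUP1, GUT2 and STL1 turned to 0.09, 0.08, -0.01, 0.19 and 1.56, and the differences of response of GPP1 and GPP2 to -0.88 and -3.42.

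Treating the times as repeats left 51, 22 and 31 probes for the control response, the cdc55 response and the strain difference under NaCl, 0 at 0 min, and 3 and 2 members in the responses. Leaving out each time with NaCl gave 33 to 1750, 13 to 961, 0 to 72, 0 to 1012 and 0 to 2 probes in the control response, the cdc55 response, both strain differences (0 min, NaCl) and the difference of responses. Members called were then 3 to 7, 3 to 5, 0, 0 to 3 and 0. Such fits have 1 residual degree of freedom. Median centring gave 1197 probes in the control response (539 higher, 658 lower), 546 in the cdc55 response (273 and 273), 20 at 0 min (2 and 18) and 403 under NaCl (146 and 257), with 2 members called under NaCl. An intensity trend gave 0 at 0 min and 268 under NaCl, and the scanner software's log ratio gave 5 at 0 min. A constant strain term gave 834 under NaCl, with 2 members. Cy5 alone gave 29 at 0 min (17 higher, 12 lower), 277 under NaCl (70 higher, 207 lower) and 16 in the difference of responses, all lower, with 0 members among them. The cause was not tested in these cases.

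Small differences that did not pass changed sign. Under NaCl FPS1 (-0.03) was 0.06 with median centring, 0.10 with the scanner's ratio and the value table, and 0 without 30 min and with a constant strain term. GPD1 (0.10) was -0.06 without 10 min, 0.26 without 30 min and -0.22 in Cy5 alone. GPP1 (0.09) was -0.10 without 10 min, 0.26 without 30 min, -0.04 with a constant term and -0.11 in Cy5 alone, GPP2 was -0.10 in Cy5 alone, and YPR1 (0.01) was -0.02 without 10 min and in Cy5 alone, 0.13 without 20 min and -0.09 without 30 min. GPP1 at 0 min was 0.14 and its difference of response -0.25 in Cy5 alone. The difference of response of STL1 (-0.18) was 0.03 with median centring, 0.34 with the scanner's ratio and the value table and 0.04 without 20 min, and that of DAK1 (-0.45) ran from -1.14 without 10 min to 0.46 without 30 min. The rises of GPD1, GPP2 and STL1 in the control strain kept their direction in all 12 alternatives and passed in all but the files as attached.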
